A study of Citrus x limon with 9 samples.

Results

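FT, MFT and BFT are the 3 members described here, of 22353 genes in the expression table of lemon buds. They were taken by their gene identifiers and not by their values: Cs6g05140 is FT, Cs2g06960 is MFT and Cs8g15080 is BFT. All 3 belong to the phosphatidylethanolamine-binding protein family.

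RNA was sequenced from buds of the lemon cultivar Femminello, grafted on trifoliate orange, in 9 libraries. There were 3 stages with 3 biological replicates each. Stage 1 was 1 week before the water deficit, stage 2 was 1 week into it, and stage 3 was 1 week after watering was resumed. The deficit lasted 2 weeks. The sampled tissue was the terminal bud with the next buds below it, which the labels give as the main position of flowers. Each replicate was taken from a group of 3 trees, all of the same cultivar and rootstock. None of the 9 libraries came from trees watered throughout. The paper reports that flower buds began to form soon after the deficit started and could be seen by eye at the last sampling. The watering, the date of sampling and the development of flowers therefore cannot be told apart between the stages.

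Proteins of this family carry or hold back the signal to flower. FLOWERING LOCUS T (FT) of Arabidopsis is made in the phloem of leaves, moves to the shoot tip and joins the bZIP factor FD on a 14-3-3 protein to switch on flowering genes such as SOC1 and FRUITFULL. TERMINAL FLOWER 1 (TFL1) binds the same partners and delays flowering, and BROTHER OF FT AND TFL1 (BFT) acts like TFL1 and competes with FT for FD under salt stress in Arabidopsis. MOTHER OF FT AND TFL1 (MFT) is best known from seeds, where it takes part in the response to abscisic acid and in the control of germination.

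The annotation of the table gave FT a best match to flowering locus T of Citrus unshiu. The best match of BFT was a CEN-like protein, and CEN is the snapdragon relative of TFL1. The study's list of differentially expressed genes described BFT as the protein BROTHER of FT and TFL 1. MFT carried a KEGG orthology entry for the family. The study cloned these genes from lemon, and the gene parts of its cloning primers show both ends of each coding sequence. They are given here because the end of the coding sequence is where BFT looked most like TFL1. The forward primers, 5′ to 3′ with the start codon in capitals, were
FT start: ATGtctagcagggacagagatc
BFT start: ATGtcaagaacgactgatcc
MFT start: ATGgcgcggtctatggagcca
TFL1 start: ATGgcagcaagaatgttaga
The reverse primers, 5′ to 3′ on the opposite strand with the reverse complement of the stop codon in capitals, were
FT end: TCAtcgtgtcatagtccttcc
BFT end: TCAtcgtcttctggcagctg
MFT end: TCAacgctttctgacagcaa
TFL1 end: TCAgcgtcttctggcagcag
Over the first 20 bases of the reverse primers, BFT and TFL1 shared 18 bases, MFT and TFL1 shared 15, BFT and MFT shared 14, and BFT and FT shared 11. Over the first 20 bases of the forward primers, BFT and MFT shared 11, BFT and FT shared 9 and BFT and TFL1 shared 8, so the likeness of BFT to TFL1 was seen in the reverse primers. These counts include the 3 bases of the codon, and primers may have been adjusted by their designers. Expression of TFL1 was not analysed here.

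The values are FPKM, fragment counts scaled to transcript length and library size, which allow levels to be compared between genes. The 9 libraries had between 19210 and 20099 genes above 0, and their correlations were 0.982 to 0.986 within a stage and 0.953 to 0.969 between stages (Pearson, log2(FPKM + 1), across genes, which are not independent replicates). Differences were tested with limma on log2(FPKM + 1) over the 17729 genes with at least 1 FPKM in at least 3 libraries, with Benjamini-Hochberg adjustment. A gene was called when its adjusted p was under 0.05 and its log2 fold change was at least 1 in size. Fold changes of low genes are understated on this scale. All 3 members passed the filter on low values: MFT had at least 1 FPKM in 9 libraries, BFT in 7 and FT in 5.

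The 3 genes differed widely in level and each took its own course over the stages. MFT was abundant and fell at the deficit and was lower still after it. BFT was low, fell at the deficit and was highest after watering resumed. FT was close to the limit of detection throughout and was not called in any comparison.

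**Figure D1:**
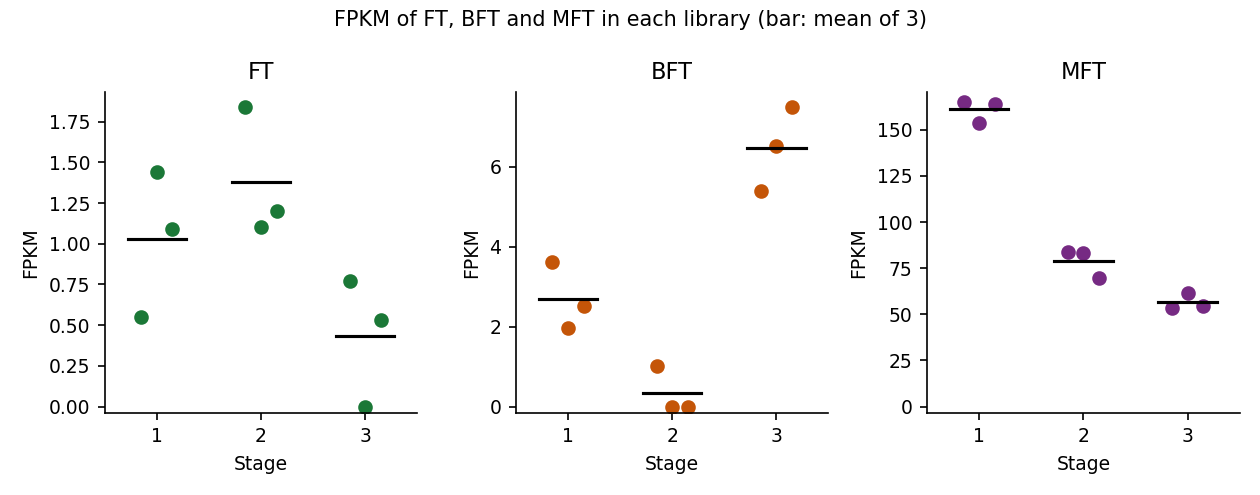
FPKM of FT, BFT and MFT (panels, each with its own axis from 0) in each of the 9 libraries at stages 1, 2 and 3; points are libraries and bars are means of 3. MFT declined over the stages with no overlap between them, BFT was lowest at stage 2 and highest at stage 3, and FT stayed under 2 FPKM.

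MFT had 164.96, 153.92 and 164.29 FPKM at stage 1, 83.59, 83.31 and 69.7 FPKM at stage 2, and 53.27, 61.69 and 54.66 FPKM at stage 3. Each stage lay wholly below the one before it. Of all genes tested, 22.2% were likewise lower with no overlap at stage 2 against stage 1, 26.5% at stage 3 against stage 2 and 21.4% at stage 3 against stage 1. The means were 161.1 ± 6.19, 78.9 ± 7.94 and 56.5 ± 4.51 FPKM (SD, n = 3 each), which placed MFT above 97.6%, 93.2% and 89.8% of all genes in the table. At stage 2 the mean of MFT was 49.0% of that at stage 1, and at stage 3 it was 35.1% of that at stage 1.

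The onset of the deficit was accompanied by lower MFT, with a log2 fold change of -1.03 for stage 2 against stage 1 (95% interval -1.20 to -0.85, limma adjusted p = 2.09e-06). The call rests on the fold threshold: without stage 2 replicate 3, which had the lowest of the 3 values, the change was -0.94 and no longer reached it. Between stage 3 and stage 2 the log2 fold change of MFT was -0.47 (95% interval -0.65 to -0.29, adjusted p = 0.000877), which passed the adjusted p but not the fold threshold. Of all genes tested, 36.0% passed the adjusted p alone in that comparison. Over the whole span, stage 3 against stage 1, MFT fell by 1.50 on the log2 scale (95% interval -1.67 to -1.32, adjusted p = 1.22e-07).

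BFT had 3.62, 1.96 and 2.52 FPKM at stage 1. At stage 2 it had 1.01 FPKM in replicate 1 and was listed at 0 in replicates 2 and 3. At stage 3 it had 5.39, 6.52 and 7.49 FPKM. All libraries of stage 3 were above all of stage 1, and all of stage 1 above all of stage 2. Of all genes tested, 19.9% were higher with no overlap at stage 3 against stage 2 and 22.2% at stage 3 against stage 1. The means were 2.70 ± 0.845 FPKM at stage 1 and 6.47 ± 1.05 FPKM at stage 3 (SD, n = 3 each).

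BFT fell at the deficit, with a log2 fold change of -1.53 for stage 2 against stage 1 (95% interval -2.17 to -0.89, limma adjusted p = 0.00165). Under the NOISeq-style probability, the alternative nearest to the study's own test, this call was lost, at a probability of 0.621 against a threshold of 0.8. BFT rose after watering resumed, by a log2 fold change of 2.56 for stage 3 against stage 2 (95% interval 1.91 to 3.20, adjusted p = 4.09e-05). This was the largest change among the 3 members in any comparison. Whether the rise went with the watering or with the forming of flower buds was not tested.

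After watering resumed BFT was also above its level before the deficit, with a mean at stage 3 that was 2.40 times that at stage 1. The log2 fold change was 1.03 (95% interval 0.39 to 1.67, adjusted p = 0.0221), just past the threshold. This call was lost without stage 1 replicate 2 (0.88), without stage 1 replicate 3 (adjusted p = 0.063), without stage 3 replicate 2 (adjusted p = 0.0601) and without stage 3 replicate 3 (0.93), and it was lost with smaller pseudocounts, under which the adjusted p reached 0.57. The adjusted p ranged over all alternatives between 0.0049 and 0.57.

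FT, the florigen gene, had 0.55, 1.44 and 1.09 FPKM at stage 1 and 1.84, 1.1 and 1.2 FPKM at stage 2. At stage 3 it had 0.77 FPKM in replicate 1, was listed at 0 in replicate 2 and had 0.53 FPKM in replicate 3. Stages 1 and 2 overlapped, whereas all 3 values of stage 3 were below those of stage 2. The means were 1.38 ± 0.401 FPKM at stage 2 and 1.03 ± 0.448 FPKM at stage 1 (SD, n = 3 each).

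FT differed by a log2 fold change of 0.24 between stage 2 and stage 1 (95% interval -0.39 to 0.88, limma adjusted p = 0.543). Stage 3 against stage 2 gave -0.76 (95% interval -1.40 to -0.12, adjusted p = 0.0619), and 26.5% of all genes tested were likewise lower at stage 3 with no overlap. Stage 3 against stage 1 gave -0.52 (95% interval -1.15 to 0.12, adjusted p = 0.222). The interval for stage 2 against stage 1 lay within the fold threshold, and those of both comparisons with stage 3 reached past it on the lower side. The first interval depends on the pseudocount of 1. With 0.1 the change was 0.45 with a standard error of 0.80, and with 0.01 it was 0.49 with a standard error of 1.41. A change of FT past the threshold at stage 2 is thus not excluded. Over the alternatives, the adjusted p of FT for stage 3 against stage 2 ranged between 0.0406 and 0.204. It was under 0.05 with quantile normalization (0.0406), without the trend (0.0431), without stage 3 replicate 1 (0.0463) and with no filter on low values (0.049), but in none of these was the fold threshold met.

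Counted over the members, 2 of 3 were called at stage 2 against stage 1, both lower, where 4.66% of all genes tested were called lower, 3.18% higher and 7.85% in either direction. In stage 3 against stage 2, 1 of 3 was called, BFT, which was higher, against 4.92% of all genes called higher, 2.54% called lower and 7.46% called in either direction. In stage 3 against stage 1, 2 of 3 were called, BFT higher and MFT lower, against 2.69% called higher and 2.24% called lower, or 4.93% in either direction. With 3 members these counts are a description only.

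**Figure D2:**
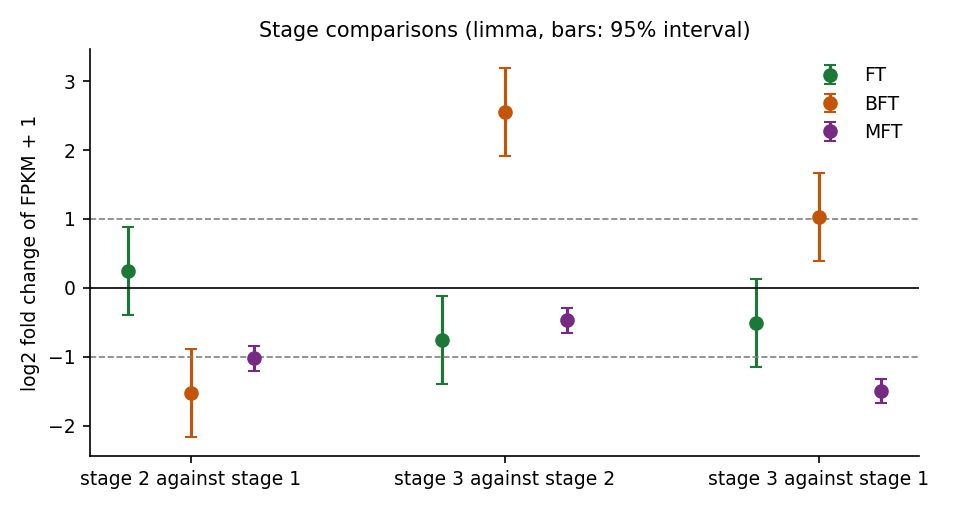
Log2 fold change of FPKM + 1, later stage over earlier stage, for FT, BFT and MFT in the 3 comparisons, with 95% limma intervals; dashed lines mark the fold threshold of 1 in either direction. BFT changed sign between the comparisons, at -1.53, 2.56 and 1.03, while MFT was below 0 in all 3 and every FT point lay within the dashed lines.

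The precision of the low genes can be judged from steps in their values. The values of FT fell close to multiples of 0.183 FPKM and those of BFT close to multiples of 0.503 FPKM, which are estimates of what 1 read was worth for each gene. On this estimate FT rested on about 3, 8 and 6 reads at stage 1, 10, 6 and 6 at stage 2, and 4, 0 and 3 at stage 3. BFT rested on about 7, 4 and 5 reads at stage 1, 2, 0 and 0 at stage 2, and 10, 13 and 16 at stage 3. A count of 0 allows up to 3 reads, or 0.549 FPKM for FT and 1.51 FPKM for BFT, which covers counting error only.

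The spread between replicates was compared with that of other genes at a like level. At stage 1 the coefficient of variation was 43.7% for FT, against a median of 39.0% over genes of like mean level. It was 31.3% for BFT, against 22.5% for genes at its level. It was 3.84% for MFT, against 3.26% for genes at its level, so the values of MFT were far more precise than those of FT.

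Within a library, the order of the listed values of BFT and FT changed with the stage. BFT was the higher of the pair in 3 of 3 libraries at stage 1, by 0.52 to 3.07 FPKM. FT was the higher in 3 of 3 libraries at stage 2, with BFT minus FT between -1.2 and -0.83 FPKM. BFT was again the higher in 3 of 3 libraries at stage 3, by 4.62 to 6.96 FPKM. The order was not tested, and at stage 2 BFT was within a few reads of 0. Where BFT was listed at 0, its bound of 1.51 FPKM lies above FT, which had 1.1 and 1.2 FPKM there. The order at stage 2 is therefore uncertain. The smallest gap at stage 1, 0.52 FPKM, is close to the 0.503 FPKM estimated for 1 read of BFT.

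**Figure D3:**
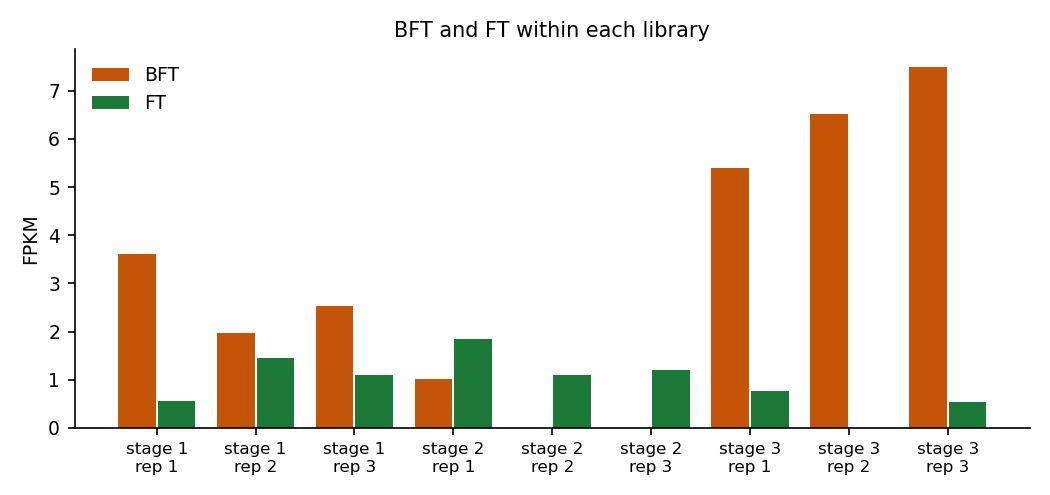
FPKM of BFT and FT side by side in each of the 9 libraries, with bars from 0. By listed values, BFT was higher in the 3 libraries of stage 1 and the 3 of stage 3. FT was higher in the 3 libraries of stage 2, where BFT was within a few reads of 0 and the order is uncertain.

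The family held other genes in the table. By the words searched for in their annotation, 6 genes belonged to it, the 3 members included. One more was found by its KEGG entry, shared with MFT, after the table was opened, so that its inclusion was chosen after its values could be seen. The 7 genes together were dominated by MFT, which made up 68.5% to 71.0% of their summed FPKM at stage 1, 51.2% to 53.1% at stage 2 and 57.4% to 62.5% at stage 3.

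The gene found by its KEGG entry, Cs6g08900, was the second most abundant of the family. Its best match was a hypothetical protein, and its description was a partial phosphatidyl ethanolamine binding protein. It had 68.65, 64.65 and 62.86 FPKM at stage 1, 75.62, 72.41 and 59.29 FPKM at stage 2, and 26.45, 30.47 and 32.51 FPKM at stage 3. Stages 1 and 2 overlapped and every library of stage 3 was below both. Cs6g08900 fell after watering resumed, with a log2 fold change of -1.18 for stage 3 against stage 2 (limma adjusted p = 3.32e-06) and of -1.11 for stage 3 against stage 1 (adjusted p = 7.79e-06). Its value of 0.07 for stage 2 against stage 1 (adjusted p = 0.606) turned to -0.0037 when each library was divided by its median. MFT was lower at stage 2 than at stage 1, while Cs6g08900 did not pass the test there, and the difference between the genes was not tested.

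A pair of genes was annotated as HD3A-like, HD3A being the florigen gene of rice. Cs6g05150 was listed at 0 in 6 of 9 libraries and did not reach 0.6 FPKM, and it was not tested. Cs6g05515 had 0, 2.09 and 0 FPKM at stage 1, 1.1, 0 and 1.51 FPKM at stage 2, and was listed at 0 in all libraries of stage 3; it was not called. The MFT-like gene orange1.1t00045 had 0.27 FPKM in replicates 2 and 3 of stage 1 and was listed at 0 elsewhere. Reads of near-identical copies can be split between them, so the levels of FT and the HD3A-like genes are uncertain.

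Genes matched by their annotation to regulators of FT in Arabidopsis were called in every comparison, unlike FT. The difference from FT was not tested. Of 27 tested genes on a list of FT regulators (29 found), 7 were called higher and 6 lower at stage 2 against stage 1, where 3.18% of all genes tested were called higher and 4.66% lower, with a median log2 fold change of 0.32 against 0.05 over all genes. At stage 3 against stage 2, 1 was called higher and 9 lower (all genes 4.92% and 2.54%), with a median of -0.21 against -0.06. At stage 3 against stage 1, 4 were called higher and 4 lower (all genes 2.69% and 2.24%), with a median of -0.35 against 0.01. The list mixed matches to activators of FT, such as GIGANTEA, with matches to repressors, such as FLOWERING LOCUS C. Its counts and medians therefore give no single direction for FT. Genes of all lists were found by words in their best match, and for the study's differentially expressed genes also in a second description. Genes that the study found to differ thus had a further way onto the lists. The effect of this on the counts was not tested.

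GIGANTEA (Cs3g21790), the clock-linked protein that promotes FT through CONSTANS, had 5.64, 4.97 and 4.21 FPKM at stage 1, 87.34, 91.3 and 100.82 FPKM at stage 2, and 25.93, 25.01 and 26.52 FPKM at stage 3. The stages did not overlap, and GIGANTEA was high under the deficit and in between after it. The paper gives the hour of sampling for leaves but not for buds. Whether the hour was the same at each stage is therefore not known for this clock-linked gene or the others named here. The log2 fold change of GIGANTEA was 3.99 for stage 2 against stage 1 (limma adjusted p = 3.45e-10) and 2.18 for stage 3 against stage 1 (adjusted p = 3.08e-08). Adagio 3 (Cs2g17510), named FKF1 in Arabidopsis, is the blue-light receptor that works with GIGANTEA, and it averaged 4.51, 28.3 and 4.63 FPKM at stages 1, 2 and 3. It rose by a log2 fold change of 2.40 at stage 2 against stage 1 and fell by 2.38 at stage 3 against stage 2.

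CONSTANS-like genes encode zinc finger proteins related to CONSTANS, the activator of FT, though many of them have other roles. The CONSTANS-LIKE 6-like gene Cs8g20740 averaged 2.12, 91.7 and 1.07 FPKM at stages 1, 2 and 3, with a log2 fold change of 4.91 at the onset of the deficit (stage 2 against stage 1) and of -5.49 after watering resumed (stage 3 against stage 2). The CONSTANS-LIKE 16 gene Cs2g12490 averaged 24.9, 125.0 and 16.8 FPKM, with 2.28 and -2.83. The CONSTANS-LIKE 14-like gene Cs7g02880 fell by 2.37 at stage 3 against stage 2. These 3 genes were highest under the deficit, as were some others on the list, while further genes of the list were not. The gene annotated as constans-1, Cs6g19280, averaged 91.5 FPKM at stage 2 and 244.1 FPKM at stage 1 and fell by 1.41 on the log2 scale (limma adjusted p = 4.16e-09). The CONSTANS-LIKE 14 gene Cs2g21940 averaged 58.9 FPKM at stage 2 and 148.9 FPKM at stage 1 (adjusted p = 4.81e-06). Both were picked out after their values were seen. The other genes of the list called lower at stage 2 against stage 1 were all annotated as cyclic dof factors. Their log2 fold changes were -1.38 (Cs7g03670), -1.28 (Cs6g21400), -1.09 (Cs5g10770) and -1.03 (Cs5g27390), and they too were named after their values were seen.

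Other CONSTANS-like genes ended below their starting level. At stage 3 against stage 1, Cs2g19010 (CONSTANS-LIKE 9-like) fell by 1.39 on the log2 scale. Cs2g24030 (CONSTANS-LIKE 6) also fell, with a mean of 9.74 FPKM at stage 3 and 25.4 FPKM at stage 1. Cs5g10810 was on the list for its best match to FLOWERING LOCUS C, a repressor of FT in Arabidopsis. The study's list of differentially expressed genes described Cs5g10810 as a chlorophyll a-b binding protein, so its identity is uncertain. Its values were 78.17, 78.35 and 73.21 FPKM at stage 3 and 32.65, 33.29 and 33.37 FPKM at stage 1, with a log2 fold change of 1.19 (limma adjusted p = 5.26e-08).

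**Figure D4:**
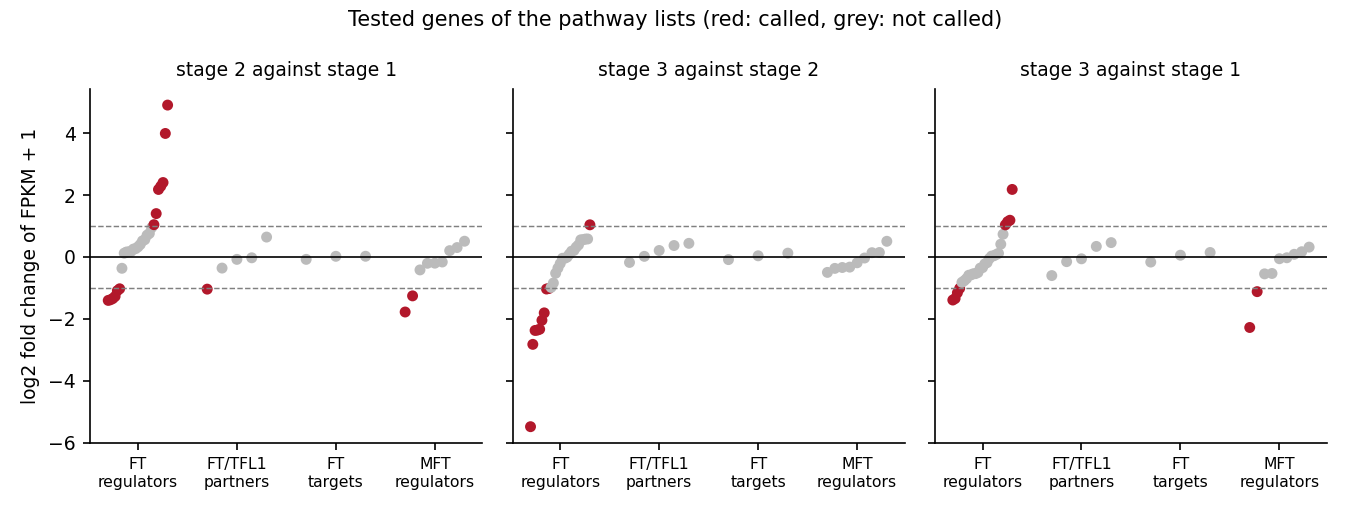
Log2 fold change of FPKM + 1 for each tested gene of the lists of FT regulators (27 genes), FT and TFL1 partners (5), FT targets (3) and MFT regulators (9) in the 3 comparisons; red points were called, grey points were not, and dashed lines mark the fold threshold. Called genes lay mostly among the FT regulators, with 13 of 27 called in stage 2 against stage 1.

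Among the partners and targets of FT, 1 gene was called, at stage 2 against stage 1, where 4.66% of all genes tested were called lower and 3.18% higher. Of 5 partners, all tested, only the TCP12-like gene Cs7g12770 was called, a relative of the branching factors that bind FT in Arabidopsis. It had 0.75, 1.34 and 0.97 FPKM at stage 2 and 3.75, 2.05 and 3.86 FPKM at stage 1, with a log2 fold change of -1.04 (limma adjusted p = 0.0168). The call was lost without stage 1 replicate 1, stage 1 replicate 3 or stage 2 replicate 1, where the adjusted p reached 0.0646, with quantile normalization (-0.94), with an adjusted p under 0.01 and under the NOISeq-style probability. The FD-like gene Cs3g26540 averaged 11.4, 11.4 and 14.7 FPKM at stages 1, 2 and 3 and was not called. The 14-3-3-like genes were not called either, and at stage 2 against stage 1 they went different ways. Their log2 fold changes there were 0.64 for Cs3g17470 (limma adjusted p = 1.2e-06), -0.36 for Cs2g04850 (adjusted p = 0.00366) and -0.08 for Cs2g15550 (adjusted p = 0.366).

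Of 3 tested targets (5 found), limma called 0 in each comparison. Of all genes tested, 7.85% were called in either direction at stage 2 against stage 1, 7.46% at stage 3 against stage 2 and 4.93% at stage 3 against stage 1. At an unadjusted p under 0.05 there was 1 target at stage 3 against stage 1 and 0 in the other comparisons. The NOISeq-style probability called 0 targets in each. The SOC1-like gene orange1.1t00278 averaged 85.3, 80.7 and 76.0 FPKM at stages 1, 2 and 3, and Cs9g16575, the second SOC1-like gene, averaged 45.5, 46.4 and 50.4 FPKM. Cs6g19710, a homolog of AGL8 (FRUITFULL), averaged 1.86, 2.12 and 1.98 FPKM.

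On the side of MFT, the list of regulators held abscisic acid and gibberellin response factors, of which 9 of 14 were tested. At stage 2 against stage 1, 2 were called lower and 0 higher by limma, where 4.66% of all genes tested were called lower and 3.18% higher, with a median log2 fold change of -0.20 against 0.05 over all genes. At stage 3 against stage 1, 2 were again called lower and 0 higher (all genes 2.24% and 2.69%), with a median of -0.06 against 0.01. At stage 3 against stage 2 limma called 0, with 3 at an unadjusted p under 0.05, and the NOISeq-style probability called 0.

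ABSCISIC ACID-INSENSITIVE 5 (ABI5, Cs6g14960), the bZIP factor that acts with MFT in Arabidopsis seeds, had 9.15, 8.26 and 6.51 FPKM at stage 1 and 1.08, 1.1 and 2.98 FPKM at stage 2. At stage 3 it was listed at 0 in replicate 1 and had 2.15 and 0.95 FPKM in the others. The log2 fold change of ABI5 was -1.78 for stage 2 against stage 1 (limma adjusted p = 0.0036) and -2.28 for stage 3 against stage 1 (adjusted p = 0.00102). The ABI5-like gene Cs6g14970 was also called lower in both, at -1.26 (adjusted p = 0.0195) and -1.12 (adjusted p = 0.0437). Its calls were weak: the first was lost without stage 1 replicate 1 or 3 or stage 2 replicate 2 or 3 (adjusted p up to 0.0704), the second without any replicate of stage 1 or replicate 2 or 3 of stage 3 (up to 0.154). The call of ABI5 itself at stage 2 against stage 1 was lost with pseudocounts of 0.1 and 0.01. Both genes and MFT were thus lower at stages 2 and 3 than at stage 1. Other genes of the list went the other way at stage 2 against stage 1, though they were not called. The ABI5-like gene Cs2g28995 was higher by 0.51 (limma adjusted p = 0.0046) and the DELLA gene Cs2g16940 by 0.30 (adjusted p = 0.00819). By adjusted p alone, 2 genes of the list were higher and 3 lower there, and 0 were higher and 4 lower at stage 3 against stage 1.

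The make-up of the buds can be followed by marker genes. Known markers of the shoot meristem, 8 genes, summed to 184 to 194 FPKM at stage 1, 235 to 250 at stage 2 and 269 to 274 at stage 3, with none averaging 0. The members went different ways. The knotted-1-like 2 gene Cs3g16460 averaged 77.1, 128.3 and 144.5 FPKM at stages 1, 2 and 3 and made up most of the higher sum, and SHOOT MERISTEMLESS-like (Cs2g02590), the defining meristem gene, averaged 57.3, 70.5 and 70.5 FPKM. The knotted-1-like 6 gene Cs7g08990 averaged 24.0, 16.9 and 21.1 FPKM, and the knotted-1-like 10 gene Cs3g15150 averaged 9.51, 6.54 and 7.26 FPKM. Phloem markers, 5 genes, summed to 266 to 296 FPKM at stage 1, 236 to 262 at stage 2 and 222 to 243 at stage 3, also with none averaging 0. This sum was mostly the sucrose transporter gene SUC2 (Cs3g22560), which averaged 215.1, 188.8 and 156.8 FPKM, whereas PHLOEM PROTEIN 2-LIKE A9 (Cs2g10910) averaged 25.0, 24.0 and 37.2 FPKM. The part of these shifts in the levels of FT, BFT and MFT was not tested, and in whole buds fewer cells of a type and less RNA per cell cannot be told apart.

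WUSCHEL-like (Cs1g25270), the gene of the meristem's organising centre, was like BFT lowest at stage 2. It had 1.14, 0.8 and 1.13 FPKM at stage 1, was listed at 0 in replicates 1 and 2 of stage 2 with 0.18 FPKM in replicate 3, and had 1.02, 0.65 and 0.78 FPKM at stage 3. Its log2 fold change was -0.93 for stage 2 against stage 1 (limma adjusted p = 0.00908) and 0.78 for stage 3 against stage 2 (adjusted p = 0.0247), under the fold threshold in both. At its low level these values depend on the pseudocount of 1: with 0.1 they were -2.98 (adjusted p = 0.00799) and 2.68 (adjusted p = 0.015), both called, and the first was also called without stage 1 replicate 2 (-1.01) or stage 2 replicate 3 (-1.01). WUSCHEL-like did not share the higher level of BFT at stage 3 over stage 1, where its change was -0.16 (adjusted p = 0.679).

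The genes whose pattern was most like each member were found by Pearson's r of log2(FPKM + 1) over the 9 libraries, which share the 3 stages, and are given as a description. For MFT the 5 closest were Cs5g05100 (r = 0.990), orange1.1t00628 (0.990), the chalcone synthase gene Cs2g14720 (0.990), orange1.1t00386 (0.988) and the phosphatase 2C gene Cs9g18330 (0.987). Chalcone synthase, the entry enzyme of flavonoid synthesis, averaged 229.5, 127.6 and 96.7 FPKM at stages 1, 2 and 3. There were 127 genes with r of at least 0.95 to MFT.

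For BFT the closest were the galacturonosyltransferase-like gene Cs2g28760 (r = 0.987), Cs7g28880 (0.987), Cs5g26940 (0.982), Cs4g01460 (0.980) and the RING-H2 finger gene Cs9g04030 (0.980), and 103 genes reached 0.95. Cs2g28760, of a family of cell wall glycosyltransferases, averaged 35.8, 13.3 and 59.4 FPKM at stages 1, 2 and 3. For FT the closest were Cs5g08795 (r = 0.942), Cs5g12490 (0.941), Cs8g17680 (0.919), Cs6g09280 (0.919) and Cs8g16740 (0.913), with 0 genes at 0.95. The values of FT rest on few reads, which limits any likeness to it.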

How the data were processed

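Total RNA of lemon buds was sequenced in 9 libraries, 3 per stage. The authors removed low-quality reads, aligned them to the sweet orange genome and deposited 1 table of FPKM per gene and library; processing notes name FASTX-Toolkit and BWA, and no counting program or version is given in the sources used here. The table also holds the authors' own comparisons (log2 ratios and probabilities), whose values enter no result. Descriptions of the genes the authors found to differ were searched, with the best matches of all genes, to make the lists. Mapped fragments per library are not given with the FPKM, so read numbers are estimates from steps in the values.

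From these FPKM, genes with at least 1 FPKM in at least 3 libraries were tested with limma 3.58.1 (R 4.3.3, trend) on log2(FPKM + 1), pseudocount 1, with 1 mean per stage over the 9 libraries and Benjamini-Hochberg adjustment; other values were computed in Python 3.11.15. The code was tested on simulated data. Alternatives were pseudocounts of 0.1 and 0.01, no filter and a filter at 5 FPKM, division by the library median, quantile normalization, limma without the trend, a fit on the 6 libraries compared, an adjusted p under 0.01, no fold threshold, the replicate block, leaving out each replicate, and a probability modelled on NOISeq (threshold 0.8, FPKM of 0 set to 0.01), since NOIseq itself was not run. This probability was computed in 2 forms. The planned form drew its noise from gene pairs above 0 in at least 1 library; a form that also kept pairs at 0 was added after the data were seen, because the planned form differed from earlier counts on these data and from the authors' probabilities for BFT, which had been looked at; it is therefore no independent check.

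The genes named were the 3 members, the other genes of the family, at most 4 genes per list and comparison with the largest called change and no overlap between stages, and the 5 genes most correlated with each member. WUSCHEL-like, the other markers, Cs6g19280, Cs2g21940, the cyclic dof factor genes and the genes named as not called were named after their values were seen. The members and lists were chosen with earlier results of these data known.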

Additional observations from a re-analysis of the deposited data

How the results depend on the processing

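Directions of the 3 members held under every alternative run, but the size for the low members depends on the pseudocount. With pseudocounts of 0.1 and 0.01, BFT was -3.61 and -5.81 at stage 2 against stage 1 and 4.87 and 7.10 at stage 3 against stage 2, and FT was -1.93 and -3.07 at stage 3 against stage 2 and -1.48 and -2.58 at stage 3 against stage 1. MFT at stage 2 against stage 1 ranged from -1.07 to -0.94 with 1 replicate left out, and its change of -0.47 at stage 3 against stage 2 became a call with no fold threshold. BFT at stage 3 against stage 1 lost its call with library medians (1.00), pseudocount 0.1 (1.26), pseudocount 0.01 (1.29), an adjusted p under 0.01 (1.03) and both NOISeq-style forms (1.26 each), and ranged from 0.88 to 1.20 with 1 replicate left out, called in 5 of 9. BFT at stage 2 against stage 1 lost its call under both NOISeq-style forms (-2.98 each, probability 0.621 in the planned form and 0.65 in the added form). FT was called under no alternative; the filter at 5 FPKM left it untested.

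The count of genes called, 1391, 1322 and 874 for stage 2 against stage 1, stage 3 against stage 2 and stage 3 against stage 1, became 6800, 6390 and 4845 with no fold threshold. It became 882, 880 and 660 in the planned NOISeq-style form and 959, 933 and 692 in the form added after the data were seen, so that whether the first 2 counts moved by over 1.5 times depends on which noise pairs are kept. Cs6g08900 at stage 2 against stage 1 was -0.0037 with library medians. With 1 replicate left out, Cs6g05515 ranged from -0.014 to 0.80 at stage 2 against stage 1 and from -0.81 to 0 at stage 3 against stage 1, called in none.

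No pairing of the samples by replicate number was seen (correlations of deviations -0.102 to 0.032 for the same number, -0.081 to 0.105 for other numbers). Whether the same groups of trees were sampled at each stage is not stated, so a pairing by design remains possible. With the replicate block, 1390 genes were called at stage 2 against stage 1, and no call of a member changed. The reads behind FT and BFT limit what can be said of them. The limma p-values set a difference between stages against a spread between replicates. This spread was pooled over the 3 stages, with 3 samples a stage, and drawn towards that of genes at a like level.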
